A study of Mus musculus with 12 samples.

Results

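Gpr3, Gnas, Adcy3 and Pde3a are 4 of the 24062 genes measured by RNA-seq in mouse oocytes, and they were taken by symbol as the core of the pathway that sets cyclic AMP (cAMP) in the oocyte. Oocytes came from females on a high-fat diet (HFD) or from females on a control diet (CD), in 6 pools per diet. Each pool held 4 oocytes. Both groups ate their diet for 9 weeks, were mated with vasectomized males while all ate the CD, and gave their oocytes at day 0.5 after mating. The labels give 6 females per diet, do not say which female gave which pool, and give no strain, age or meiotic stage. They name both diets by related product codes, so the composition of the CD is uncertain, and group names follow the labels' diet terms.

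In a fully grown mouse oocyte, cAMP holds meiosis in prophase arrest by keeping protein kinase A active. GPR3 is a receptor in the oocyte membrane that signals without a known circulating ligand. It acts through the stimulatory G protein alpha subunit, encoded by Gnas, and that subunit activates adenylyl cyclase, of which type 3 (Adcy3) is an oocyte form. Phosphodiesterase 3A (Pde3a) breaks cAMP down, and its activity is held low during arrest by cGMP that enters from the surrounding follicle cells. When luteinizing hormone ends the cGMP supply, cAMP drops and the oocyte resumes meiosis. The oocytes here were taken at day 0.5 after mating, and the labels do not say whether they had already resumed meiosis. Since mating preceded collection, the values below should not be read as levels of cells in prophase arrest.

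Depth, as the total of all gene counts, was 8409491 to 13793598 in HFD libraries and 8556396 to 10477316 in CD libraries. All 4 genes were counted in every library. In 4 of the 6 HFD libraries (replicates 1, 2, 4 and 6) every gene count was even, whereas 50.8% to 52.1% of the counts above 0 were odd in the other 8 libraries, CD included. Whether the even counts were doubled was not tested, so the depths of these 4 HFD libraries may not compare with the others. As deposited, HFD replicate 3 had the lowest depth of all libraries and the largest share of reads not assigned to a gene (72.9%). It also had the most genes detected, 14755, against at most 12772 in any other HFD library and 13052 in CD libraries. HFD replicate 3 and CD replicate 3 stood apart for some genes below, and values without them are given where they matter. The 15 oocyte markers, each with counts, summed to 6258 to 49160 CPM (read counts relative to library size, with sizes scaled by the TMM method) in HFD pools and to 6165 to 31540 CPM in CD pools. Of 25 cumulus and granulosa markers, 4 (Amh, Amhr2, Ptx3 and Pgr) had no count in any library. Their summed level was 125 to 1823 CPM in HFD pools and 140 to 1357 CPM in CD pools, of which 92.3% was Serpine2. Of 11 oviduct markers none was at 0 in all libraries, with sums of 8.84 to 115 CPM in HFD pools and 14.6 to 220 CPM in CD pools. Cdh1 alone made up 83.8% of this oviduct level. Of 13 stromal, muscle and endothelial markers 1 (Cdh5) was at 0, with sums of 33.1 to 46.8 CPM in HFD pools and 23.8 to 168 CPM in CD pools. Pecam1 made up 51.3% of it. Of 10 blood and immune markers 6 were at 0, and the sums were 2.49 to 9.39 CPM in HFD pools and 2.19 to 7.59 CPM in CD pools. Cd68 made up 90.1% of it. The part of these cells in the results was not tested. Reads not assigned to a gene made up 66.5% to 72.9% of all reads in HFD libraries and 62.3% to 66.6% in CD libraries, and the part of this difference was not tested either.

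Gpr3, the receptor, lies on chromosome 4 from 133209340 to 133212536 on the minus strand (mm10) and has 2734 nt of annotated exons. Its exons overlap those of Cd164l2, a gene on the opposite strand, over 204 nt or 7.46% of the Gpr3 exons. The library chemistry does not mark strand, so reads of the 2 genes cannot be told apart there. The window from 250 bases before to 50 bases after the Gpr3 start (RefSeq, GRCm38.p6, chr4:133212487-133212786, minus strand) is shown because the Gpr3 values of the diets did not overlap, beside the most downstream RefSeq window of Gnas (chr2:174329756-174330055, plus strand), whose values did. Both are written 5′ to 3′, and capitals mark TGACG or its reverse complement CGTCA, the half-site of the cAMP response element.
Gpr3: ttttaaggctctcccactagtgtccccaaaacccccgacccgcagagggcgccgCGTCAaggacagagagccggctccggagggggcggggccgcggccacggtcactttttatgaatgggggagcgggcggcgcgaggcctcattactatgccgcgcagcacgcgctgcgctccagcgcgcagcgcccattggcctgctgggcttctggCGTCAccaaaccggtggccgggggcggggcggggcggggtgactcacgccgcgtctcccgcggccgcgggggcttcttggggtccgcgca
Gnas: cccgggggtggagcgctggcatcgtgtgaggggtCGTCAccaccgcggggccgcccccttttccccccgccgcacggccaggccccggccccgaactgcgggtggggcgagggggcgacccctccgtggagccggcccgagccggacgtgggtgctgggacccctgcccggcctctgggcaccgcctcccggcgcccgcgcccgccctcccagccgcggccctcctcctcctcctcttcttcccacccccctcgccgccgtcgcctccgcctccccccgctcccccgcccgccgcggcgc
The Gpr3 window held 2 such half-sites and the Gnas window 1, and neither held the full element TGACGTCA. Among 32544 promoter windows of the same length, 20.9% held at least 1 half-site on either strand and 1.8% the full element. The Gpr3 window also held 5 GC boxes (GGGCGG or CCGCCC, found in 35.9% of windows) and 1 CCAAT box (CCAAT or ATTGG, 37.4%), and its GC content was 72%. The Gnas window held 3 GC boxes and no CCAAT box, with a GC content of 81.7%. These matches are letters in a window and were not tested for any function.

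The comparison of HFD with CD asked whether the diet before mating altered the RNA of the oocyte. Gpr3 was lower in every HFD pool than in any CD pool. It stood at 20.4, 30.5 and 40.7 CPM (lowest, median and highest) in HFD pools, against 49.1, 58.0 and 146 CPM in CD pools. The means were 30.3 ± 6.84 CPM in HFD, against 77.0 ± 38.7 CPM in CD (SD, n = 6 each), and the log2 difference was −1.35 ± 0.33 (SE), or 2.55-fold lower in HFD. The values of 127 tested genes lay in this way wholly lower in HFD, 1.28% of 9935. Raw counts of Gpr3 ran from 244 to 408 in HFD and from 411 to 1547 in CD. Fewer oocytes of a pool carrying the RNA and less RNA in each oocyte cannot be told apart in pooled oocytes.

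By edgeR's quasi-likelihood test the Gpr3 difference did not pass the threshold of 0.05 after Benjamini-Hochberg adjustment over all 9935 genes tested (unadjusted p = 0.000899, adjusted p = 0.0913). No gene did (0% called), while 22.3% of the tested genes had an unadjusted p under 0.05. The adjusted p of Gpr3 was the smallest in the table and was shared by 224 genes. At an adjusted p under 0.10 edgeR listed 4.73% of all genes, 1.31% as lower in HFD, Gpr3 and Pde3a among them. All 4 genes studied had a log2 fold change below 0, as had 48.2% of all tested genes. By unadjusted p Gpr3 ranked 79th, among the 8.89% of tested genes that were lower in HFD at an unadjusted p under 0.05. DESeq2 called Gpr3 lower (adjusted p = 0.00687). It called 7.42% of the genes to which it gave an adjusted p, 2.46% as lower in HFD. By limma-voom with quality weights, which called 0.352% of genes, Gpr3 had an adjusted p of 0.0517. Over all alternatives the adjusted p ran from 0.00687 to 0.335. Without CD replicate 3 the log2 fold change was −1.10 (adjusted p = 0.227).

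Scaling touched the separation of the diets at 1 pool. With libraries scaled by total gene counts alone, HFD replicate 3 held 48.5 CPM of Gpr3, above the lowest CD pool at 48.0, and the other HFD pools stayed below all CD pools. The 8 libraries with odd counts hold 2 HFD pools (replicates 3 and 5) and 6 CD pools. Among them the Gpr3 log2 fold change was −1.13 (edgeR, adjusted p = 0.319). Of all genes 4.03% were called there, 454 as higher and 2 as lower in HFD, with HFD replicate 3 as 1 of the 2 HFD libraries. All-even counts occurred only in HFD libraries, so no comparison could be made within that set. Genes of a length near that of Gpr3 (2432 to 3783 nt, 1973 tested genes) had log2 fold changes with a median of 0.12, and 1.42% of them had a lower value than Gpr3. With each library's trend of expression with transcript length removed, Gpr3 stood at −1.58 (edgeR, adjusted p = 0.157).

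Cd164l2 had a positive value in the same comparison. Cd164l2 averaged 547 ± 302 CPM in HFD, against 352 ± 211 CPM in CD (SD, n = 6 each), and the log2 difference was 0.64 ± 0.52 (edgeR, adjusted p = 0.495). Its pools overlapped, from 143 to 790 CPM in HFD and from 111 to 608 CPM in CD. How reads that overlap both genes were counted is not given in the sources used here, and the part of Cd164l2 in the Gpr3 counts was not tested.

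**Figure D1:**
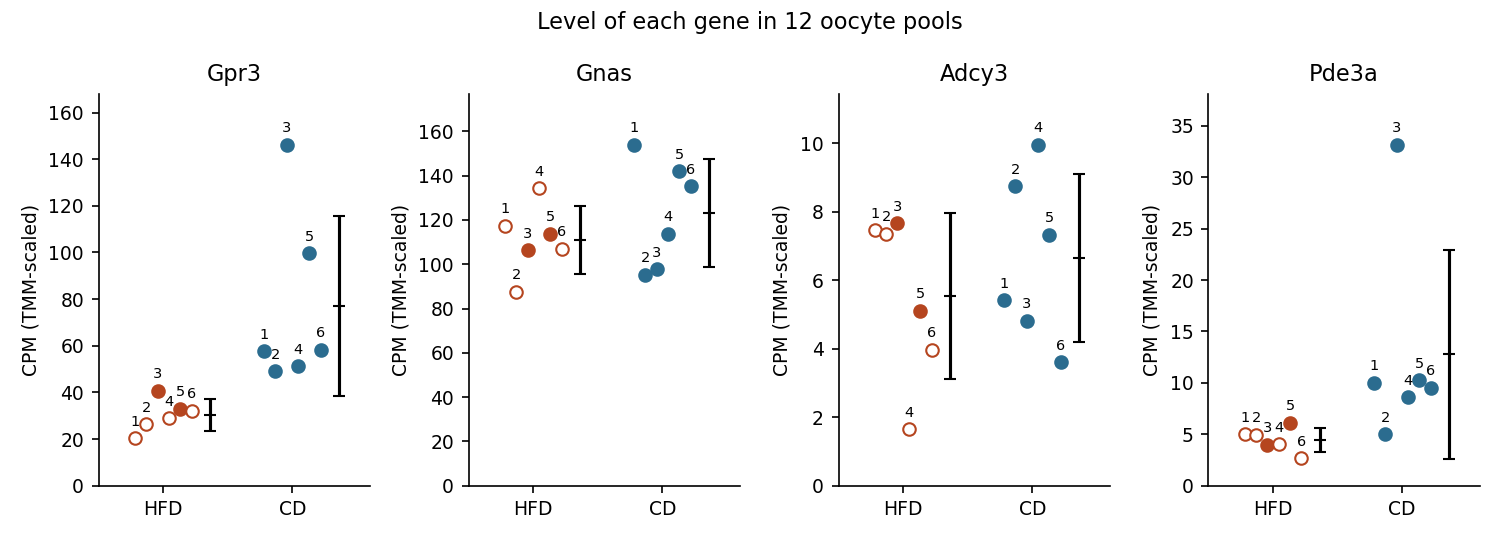
Level of each gene in CPM (vertical axes, from 0) in each pool, HFD left and CD right, with replicate numbers beside the points. Open points are libraries in which every count was even, and bars show mean and SD (n = 6 per diet). The Gpr3 points of HFD end at 40.7 CPM and those of CD begin at 49.1 CPM, while CD replicate 3 stands at 146 CPM for Gpr3 and 33.2 CPM for Pde3a.

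Gnas, which encodes the stimulatory alpha subunit and further proteins from upstream starts, lies on chromosome 2 from 174284320 to 174346744 (plus strand). The difference between the diets was smaller than the spread between pools. HFD pools stood at 87.6, 110 and 134 CPM (lowest, median and highest), against 95.3, 124 and 154 CPM in CD pools, and the ranges overlapped. The means were 111 ± 15.3 CPM in HFD, against 123 ± 24.3 CPM in CD (SD, n = 6 each), and the log2 difference was −0.15 ± 0.22 (edgeR, adjusted p = 0.728). Of the 6 HFD pools 5 lay below the CD mean. With the length trend removed the value was 0.034. Gnas varied least of the 4 genes, with a coefficient of variation of 13.8% in HFD and 19.8% in CD.

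The counts give no split of Gnas by start site. Of its 11186 nt of annotated exons, 988 nt (8.83%) overlap Nespas, an antisense RNA of this imprinted locus, and 1469 nt (13.1%) overlap the predicted gene Gm20721. Nespas itself had 2 to 32 counts in HFD and 1 to 31 counts in CD.

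Adcy3, the cyclase (chromosome 12, 4133103 to 4213525, plus strand), had low counts, 14 to 92 in HFD and 38 to 91 in CD. It stood at 1.65, 6.24 and 7.67 CPM (lowest, median and highest) in HFD pools, against 3.61, 6.38 and 9.97 CPM in CD pools. The lowest HFD pool, replicate 4, lay below all CD pools and the other 5 lay within the CD range. The means were 5.54 ± 2.42 CPM in HFD, against 6.65 ± 2.45 CPM in CD (SD, n = 6 each), and the log2 difference was −0.26 ± 0.43 (edgeR, adjusted p = 0.757). Without HFD replicate 4 it was −0.08. The spread between pools of the same diet, with a coefficient of variation of 43.7% in HFD and 36.8% in CD, was larger than the difference between the diets. Cenpo, on the opposite strand, overlaps 22.1% of the Adcy3 exons, and held 760 to 2266 counts in HFD and 906 to 3344 counts in CD. Its part in the Adcy3 counts was not tested.

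Pde3a, the phosphodiesterase (chromosome 6, 141249269 to 141507448, plus strand), was lower in HFD by a fold close to that of Gpr3. It stood at 2.65, 4.49 and 6.14 CPM (lowest, median and highest) in HFD pools, against 5.0, 9.77 and 33.2 CPM in CD pools. Of the HFD pools 4 lay below all CD pools, and CD replicate 2 at 5.0 CPM lay within the HFD range. The means were 4.46 ± 1.19 CPM in HFD, against 12.8 ± 10.2 CPM in CD (SD, n = 6 each), and the log2 difference was −1.51 ± 0.46, or 2.85-fold lower in HFD. The difference did not pass edgeR's adjustment (unadjusted p = 0.00462, adjusted p = 0.0996), and DESeq2 called it (adjusted p = 0.0238).

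CD replicate 3 weighed on the Pde3a value. It held 351 counts and 3.23 times the level of the next CD pool, and leaving it out gave −0.98 (edgeR, adjusted p = 0.253). Without both CD replicate 3 and HFD replicate 3, a choice made after seeing the data, Pde3a stood at −0.94 and Gpr3 at −1.18 (edgeR, adjusted p = 0.302 and 0.168). Among the libraries with odd counts Pde3a stood at −1.38 (adjusted p = 0.394). The median over tested genes of its length class was −0.24, and 1.07% of them had a lower value than Pde3a. The raw counts were low, 24 to 62 in HFD and 52 to 351 in CD. In 4 of the HFD libraries they are even numbers throughout, and whether those tallies were doubled was not tested. With the counts of these libraries halved, Pde3a stood at −1.51 and Gpr3 at −1.35 (edgeR, adjusted p = 0.098 and 0.0878). Halving rescales a whole library, so this fit does not show whether doubling took place.

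**Figure D2:**
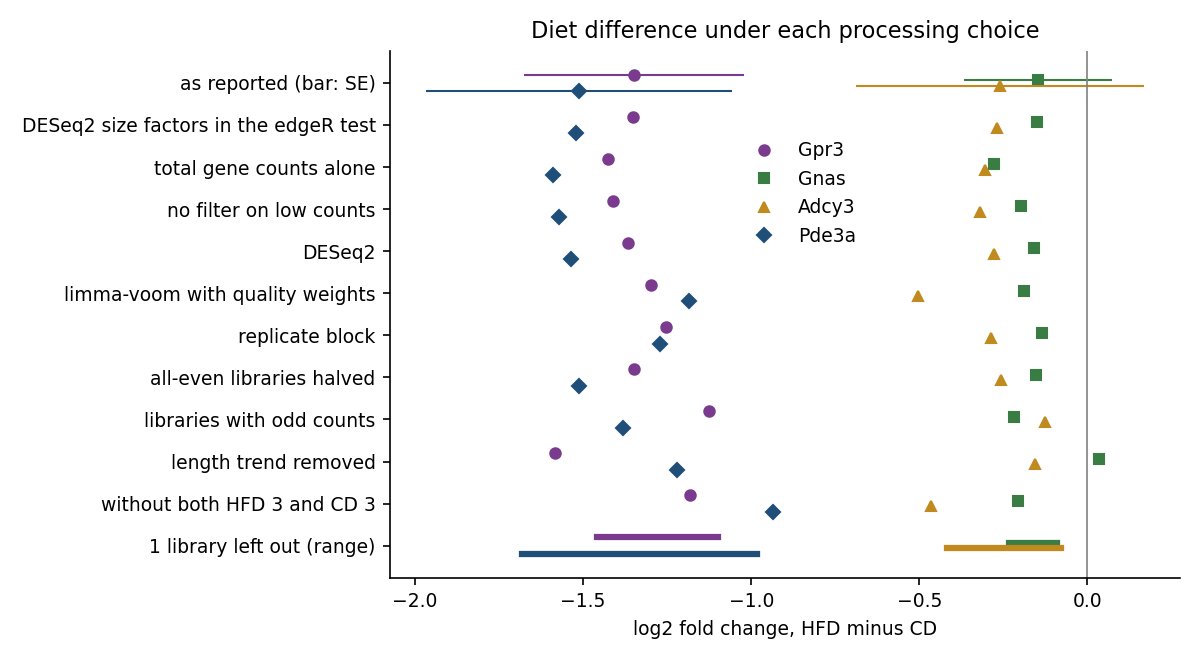
Log2 fold change of HFD minus CD (horizontal axis) for each gene as reported, with SE, and under each processing alternative (rows), with the lowest line giving the range when 1 library is left out. Gpr3 and Pde3a stay below −0.9 in every row, and Gnas and Adcy3 lie between −0.51 and 0.04.

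Within a pool, the ratio of receptor to phosphodiesterase had nearly the same median in both diets. Raw Gpr3 counts were 4.06 to 12.2 times those of Pde3a in HFD pools (median 6.28) and 4.41 to 9.83 times in CD pools (median 6.05). This ratio needs no scaling of libraries. The ratio of Gpr3 to Gnas counts was 0.174 to 0.382 in HFD pools (median 0.295) and 0.374 to 1.5 in CD pools (median 0.482), so only the ends of the ranges met. The ratio of Adcy3 to Pde3a counts was 0.412 to 1.93 in HFD pools (median 1.48) and 0.145 to 1.75 in CD pools (median 0.627), and the ranges overlapped widely. Relative to Bmp15, an oocyte growth factor, Gpr3 counts were 0.0286 to 0.134 in HFD pools and 0.0778 to 0.147 in CD pools, with an overlap as well. Relative to Gdf9, another such factor, they were 0.00299 to 0.0474 in HFD pools and 0.00734 to 0.0904 in CD pools, with a wide overlap.

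Levels of different genes were compared per kilobase of annotated exons. Gpr3 averaged 11.1 ± 2.50 CPM per kb in HFD and 28.2 ± 14.2 in CD (SD, n = 6 each). Gnas averaged 9.93 ± 1.37 CPM per kb in HFD and 11.0 ± 2.18 in CD. Adcy3 averaged 0.887 ± 0.388 CPM per kb in HFD and 1.06 ± 0.392 in CD. Pde3a averaged 0.351 ± 0.0936 CPM per kb in HFD and 1.0 ± 0.80 in CD. The receptor and the G protein stood above the cyclase in all 12 pools, Gnas by at least 6.09 times and Gpr3 by at least 6.26 times. Among 9856 tested genes with a length, Gpr3 ranked 1965th, Gnas 2869th, Adcy3 7560th and Pde3a 8227th by the mean over pools.

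The order of neighbours was not firm at either end. Gpr3 exceeded Gnas per kb in 4 of 6 HFD pools and 6 of 6 CD pools when all annotated exons of Gnas entered its length. With the longest transcript of each gene as the length (2518 nt for Gpr3, 3947 nt for Gnas), Gpr3 exceeded Gnas in 0 of 6 HFD and 2 of 6 CD pools. The annotation lists 24 Gnas transcripts, and the counts do not tell them apart. Adcy3 exceeded Pde3a per kb in 5 of 6 HFD and 4 of 6 CD pools under either length, so the order did not hold in every pool. With all annotated exons as the length, the median ratio of Adcy3 to Pde3a was 3.02 in HFD pools (range 0.84 to 3.93). In CD pools it was 1.28 (range 0.296 to 3.57). Gnas exceeded Adcy3 in all 12 pools under either length.

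**Figure D3:**
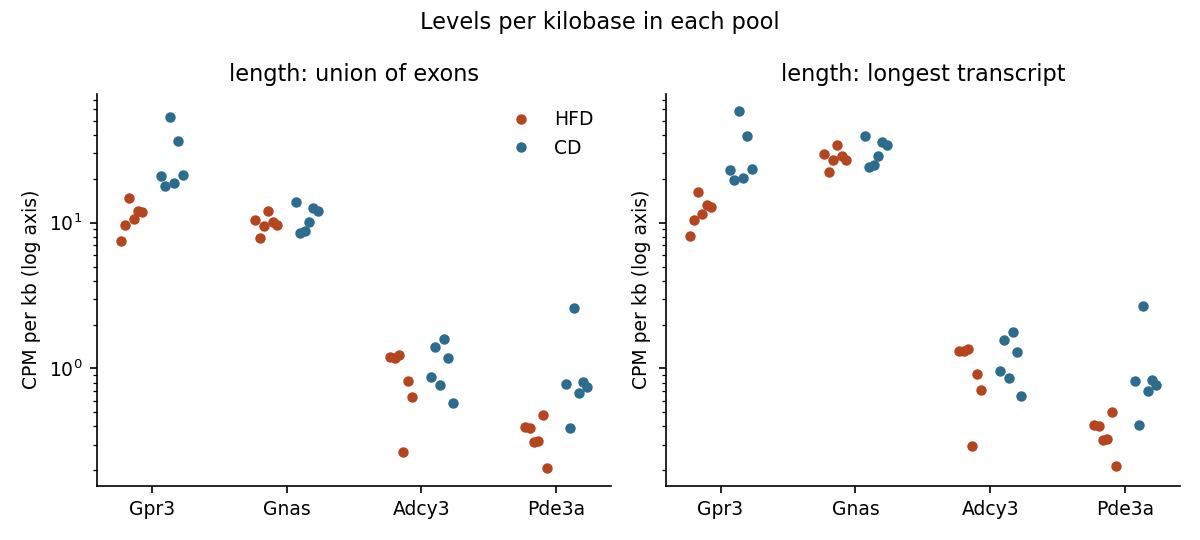
CPM per kb (log axis) of each gene in each pool, HFD left of CD within a gene, with the length taken as the union of exons (left panel) or the longest transcript (right panel). Gpr3 and Gnas lie above Adcy3 and Pde3a in every pool, and the order of Gpr3 and Gnas turns between the panels.

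Pools also differed in ways not given by diet. Mos, a kinase RNA of the egg that is listed here among the genes downstream of arrest, ran from 4.05 to 1702 CPM in HFD pools and from 3.84 to 481 CPM in CD pools. HFD replicates 1 and 2 held 9.40 and 4.05 CPM of Mos, and CD replicates 2 and 4 held 3.84 and 3.99 CPM, against at least 146 CPM in each other pool. In both diets the pools with little Mos held the least Gpr3. HFD replicates 1 and 2 had 20.4 and 26.3 CPM of Gpr3, against 28.8 to 40.7 in the other HFD pools, and CD replicates 2 and 4 had 49.1 and 51.2 CPM, against 57.6 to 146 in the other CD pools. The labels give no meiotic stage, and the part of such differences between pools in the Gpr3 result was not tested.

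Adcy3 had another order. CD replicates 2 and 4 had the highest Adcy3 of the CD pools, at 8.74 and 9.97 CPM, and HFD replicate 4, with the most Mos, had the least Adcy3, at 1.65 CPM. HFD replicates 1 and 2 stood at 7.46 and 7.36 CPM, just under HFD replicate 3 at 7.67 CPM, a pool with 766 CPM of Mos. For Pde3a, CD replicates 2 and 4 were the lowest CD pools, at 5.0 and 8.6 CPM, whereas HFD replicates 1 and 2 stood at 5.03 and 4.97 CPM, inside the HFD range. No correlation with Mos is given, since the pools fall into separate clusters of Mos level.

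**Figure D4:**
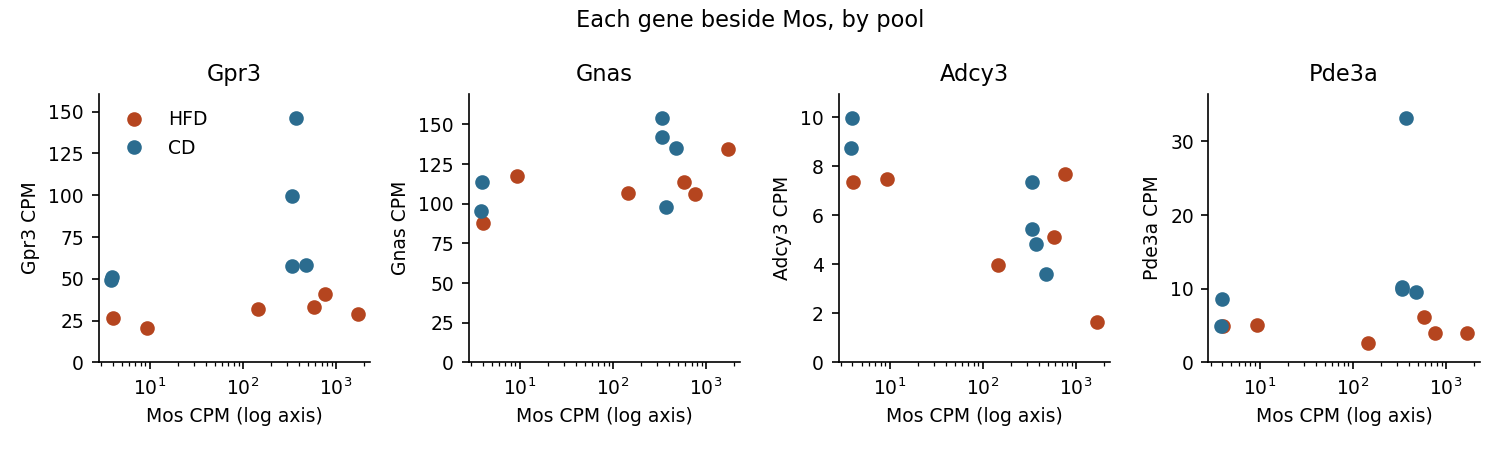
Level of each gene (vertical axes, CPM from 0) against Mos (horizontal axes, CPM on a log axis) in each pool of HFD and CD. The 4 pools at 3.84 to 9.40 CPM of Mos lie at the low end of Gpr3 within their diet and near the high end of Adcy3.

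Likeness of pattern was measured as Pearson's r of log2 CPM over the 12 pools, against all 9934 other tested genes, and is given as a description of pools that share diet and scaling. Gpr3 and Pde3a were alike (r = 0.84, rho = 0.78), which placed Pde3a 92nd among all genes for Gpr3, and with diet means removed r was 0.65. CD replicate 3 was the highest pool for both, at 146 CPM of Gpr3 and 33.2 CPM of Pde3a. The HFD pools did not share 1 order. HFD replicate 3 held the most Gpr3 of them (40.7 CPM) but 3.99 CPM of Pde3a. HFD replicate 1 held the least Gpr3 (20.4 CPM) but 5.03 CPM of Pde3a, and HFD replicate 5 was high for both (33.0 and 6.14 CPM). Gnas and Adcy3 did not follow either Gpr3 or Pde3a, with r between 0.09 and 0.16, and r between Gnas and Adcy3 was −0.37. The 5 genes most like Gpr3 were the predicted gene Gm15787 (r = 0.95), Inpp5a, an inositol phosphate phosphatase (0.94), Fam107b (0.94), Mcm6, a subunit of the replicative helicase (0.93), and Kbtbd8, a ubiquitin ligase adaptor (0.92). Each of these 5 had a log2 fold change below 0, from −1.74 to −0.83, none passing edgeR's adjustment (adjusted p = 0.0913 to 0.134). They were picked by likeness to Gpr3 over both diets, so their shared sign follows in part from that choice. With diet means removed their r with Gpr3 was 0.84 to 0.90.

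Those most like Pde3a were Plaa (r = 0.95), Fa2h, a fatty acid hydroxylase (0.93), Usp10, a deubiquitinase (0.93), Ttc17 (0.93) and the transcription factor gene Stat3 (0.92). Those most like Adcy3 were Csrp2bp (0.94), Atp6v0d1, a subunit of the proton pump of acidic vesicles (0.94), Smarcb1, a chromatin remodelling subunit (0.93), Myo5a, a myosin motor (0.93), and Zkscan17 (0.92). Gnas had no gene as close. Its nearest were H2afy, which encodes macroH2A (0.86), Inppl1, a lipid phosphatase (0.84), the lipoprotein receptor gene Vldlr (0.84), Aifm1 (0.84) and the chloride channel gene Cftr (0.84). Of these, Inppl1 averaged 1.24 CPM in HFD, against 1.29 CPM in CD, and Vldlr 0.834 CPM in HFD, against 1.22 CPM in CD.

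The rest of the pathway was read from 7 lists holding 138 further genes, of which 92 passed the filter on low counts and could be tested. None passed edgeR's adjustment. At an unadjusted p under 0.05, 12 of the 92 were lower in HFD (13%, against 8.89% of all tested genes) and 9 were higher (9.78%, against 13.4%). Their median log2 fold change was −0.02, against 0.04 over all tested genes. Without both HFD replicate 3 and CD replicate 3 the lower count was 6, and with libraries scaled by total counts it was 19. DESeq2 called 2 lower (Pde4a and Pkmyt1) and 3 higher (Gng5, Gnb5 and Creb1), of which Gnb5 was named after its values were seen. Over all genes to which DESeq2 gave an adjusted p it called 7.42%, 2.46% as lower, so the calls among these genes do not stand above that background.

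Gpr6 and Gpr12, the closest relatives of the receptor, were at or near 0. Gpr6 had 0 counts in every library, and Gpr12, which is known to keep arrest in rat oocytes, had at most 4 counts in HFD and 2 counts in CD. Of the genes that turn receptors off, 4 could be tested. At an unadjusted p under 0.05, 1 was higher in HFD and 0 lower (25%, against 22.3% of all tested genes). Grk4, a receptor kinase, averaged 5.13 ± 3.53 CPM in HFD, against 2.18 ± 1.47 CPM in CD (SD, n = 6 each), and the log2 difference was 1.23 ± 0.56 (edgeR, adjusted p = 0.212). Rgs2, which shortens G protein signals, averaged 3039 ± 760 CPM in HFD, against 2171 ± 511 CPM in CD, and the log2 difference was 0.48 ± 0.25 (edgeR, adjusted p = 0.258).

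Other G protein subunits and their partners had 20 tested genes, with a median log2 fold change of −0.03. At an unadjusted p under 0.05, 3 were higher and 1 lower (20%, against 22.3% of all tested genes). Gnai3, an inhibitory alpha subunit, averaged 144 ± 43.8 CPM in HFD, against 272 ± 82.8 CPM in CD (SD, n = 6 each), and the log2 difference was −0.92 ± 0.30 (edgeR, adjusted p = 0.109), below the CD mean in 6 of 6 HFD pools. Gng5, a gamma subunit, averaged 144 ± 65.1 CPM in HFD, against 66.1 ± 16.8 CPM in CD, and the log2 difference was 1.12 ± 0.31 (edgeR, adjusted p = 0.0946). All 6 HFD pools lay above the CD mean of Gng5, and DESeq2 called it (adjusted p = 0.0259). How many of all tested genes had all 6 HFD pools on 1 side of the CD mean was not counted. Gng12, another gamma subunit, had a log2 difference of −0.34 ± 0.46.

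Of the other cyclases, Adcy2, Adcy5, Adcy8 and Adcy9 could be tested, and none had an unadjusted p under 0.05. Adcy8 averaged 9.44 ± 3.02 CPM in HFD, against 7.30 ± 1.23 CPM in CD (SD, n = 6 each), Adcy2 12.9 ± 14.5 and 7.77 ± 6.72 CPM, and Adcy9 10.6 ± 3.0 and 11.7 ± 8.19 CPM. Per kb the mean levels over all pools were 0.976 for Adcy3, 2.46 for Adcy2, 2.15 for Adcy9, 1.03 for Adcy8 and 0.231 for Adcy5. Adcy3 and Adcy8 were close, and their order is not firm. The signs of Adcy2 and Adcy9 turned under some alternatives.

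Of 8 other phosphodiesterases tested, 1 was lower and 0 higher at an unadjusted p under 0.05 (12.5%, against 22.3% of all tested genes). Pde4a, a cAMP-specific enzyme, averaged 3.31 ± 1.5 CPM in HFD, against 9.22 ± 6.38 CPM in CD (SD, n = 6 each), and the log2 difference was −1.48 ± 0.50 (edgeR, adjusted p = 0.118), with 6 of 6 HFD pools below the CD mean. DESeq2 called it (adjusted p = 0.0432). Pde3b, the close relative of Pde3a, averaged 35.2 ± 17.8 CPM in HFD, against 54.2 ± 31.0 CPM in CD, and the log2 difference was −0.62 ± 0.42 (edgeR, adjusted p = 0.399). Pde3b averaged 4.90 CPM per kb over all pools and Pde3a 0.676. Pde8a had a log2 difference of −0.69 ± 0.63 (edgeR, unadjusted p = 0.293), although 6 of 6 HFD pools lay below the CD mean. Its CD pools ran from 1.62 to 39.1 CPM. The share of all tested genes with 6 of 6 HFD pools below the CD mean was not counted.

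Protein kinase A, its anchors and other cAMP effectors had 22 tested genes, with a median log2 fold change of −0.06. At an unadjusted p under 0.05, 4 were higher and 3 lower (31.8%, against 22.3% of all tested genes). Creb1, the transcription factor that the kinase phosphorylates, averaged 3.54 ± 1.57 CPM in HFD, against 1.06 ± 0.359 CPM in CD (SD, n = 6 each), and the log2 difference was 1.72 ± 0.47 (edgeR, adjusted p = 0.0929). Its counts were 14 to 52 in HFD and 6 to 16 in CD, and DESeq2 called it (adjusted p = 0.0120). Akap2, an anchor of the kinase, averaged 291 ± 64.6 CPM in HFD, against 155 ± 61.5 CPM in CD, and the log2 difference was 0.91 ± 0.28 (edgeR, adjusted p = 0.105). Akap7 had a log2 difference of 0.15 ± 0.28.

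The switch that lets the oocyte resume meiosis, downstream of the kinase, had 28 tested genes with a median log2 fold change of −0.15. At an unadjusted p under 0.05, 7 were lower and 1 higher, where 8.89% of all tested genes were lower and 13.4% higher. The higher gene was Cdk1, which had 2138 counts in HFD replicate 3 and at most 68 in any other HFD pool. Pkmyt1, a kinase that holds Cdk1 inactive, averaged 31.3 ± 6.97 CPM in HFD, against 60.4 ± 8.29 CPM in CD (SD, n = 6 each), and the log2 difference was −0.95 ± 0.25 (edgeR, adjusted p = 0.0913). Its pools did not overlap, and it was the only one of the 92 genes of which this held, where 2.45% of all tested genes did so in either direction. DESeq2 called it (adjusted p = 0.00418). Wee2, the oocyte kinase with the same target that protein kinase A activates, averaged 492 ± 129 CPM in HFD, against 885 ± 277 CPM in CD, and the log2 difference was −0.85 ± 0.27 (edgeR, adjusted p = 0.107). Ppp2r1a, the scaffold of phosphatase 2A, had −0.93 ± 0.30 (edgeR, adjusted p = 0.106), and Ccnb1, cyclin B1, −0.58 ± 0.31 (edgeR, adjusted p = 0.285). All 6 HFD pools lay below the CD mean for each of these 4 genes. The same held for Prkar2b, a subunit of protein kinase A with an unadjusted p of 0.217 (edgeR), and the share over all tested genes was not counted.

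Genes of the cGMP and gap junction input had 6 tested members, none with an unadjusted p under 0.05, and a median log2 fold change of −0.30. The follicle cell genes Npr2, Nppc and Lhcgr had at most 10, 8 and 5 counts in HFD and at most 0, 4 and 0 counts in CD. Gja4, the connexin of the oocyte side, averaged 82.2 ± 138 CPM in HFD, against 29.5 ± 21.9 CPM in CD (SD, n = 6 each), and the log2 difference was 1.48 ± 1.02, or −0.15 without HFD replicate 3. Gucy1a2, Prkg2 and Prkg1 had log2 fold changes of −1.65 ± 0.80, −0.74 ± 0.42 and −0.25 ± 0.30, and the signs of Gja4 and Prkg1 turned under an alternative.

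**Figure D5:**
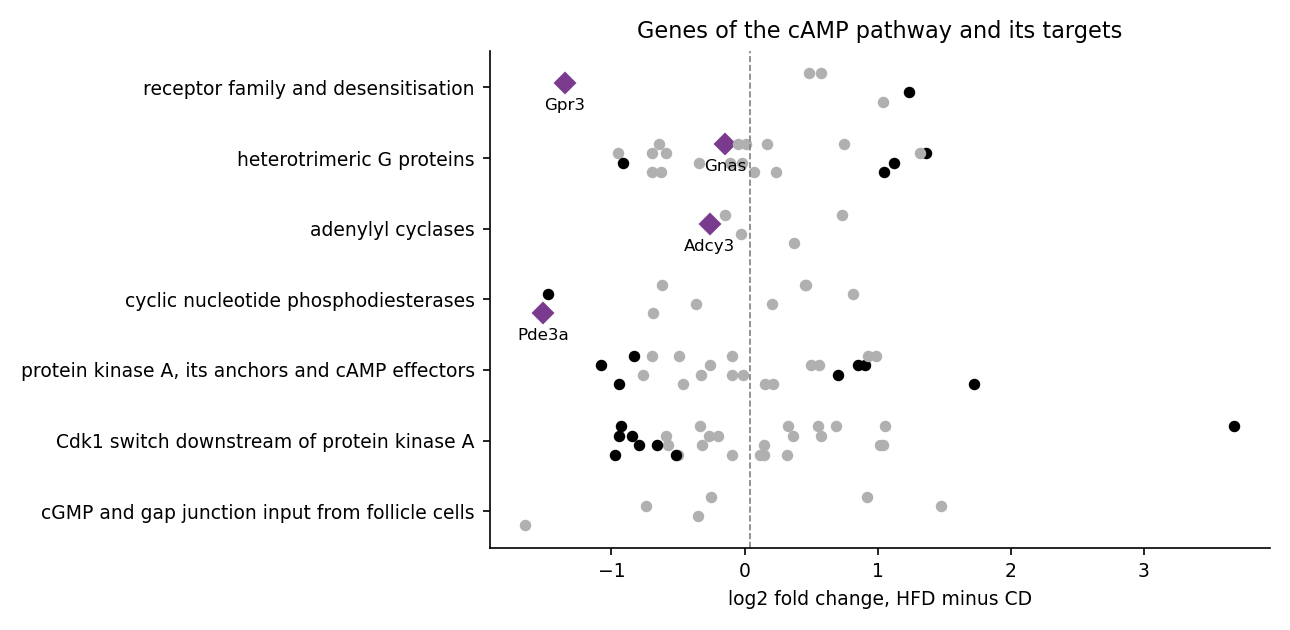
Log2 fold change of HFD minus CD (horizontal axis) for each tested gene of the 7 lists (rows), with Gpr3, Gnas, Adcy3 and Pde3a as diamonds, genes with an unadjusted p under 0.05 in black and the rest in grey. The dashed line is the median of all tested genes, 0.04. Points lie on both sides of it in each row, and the black point at the far right is Cdk1.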

How the data were processed

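RNA of pooled mouse oocytes was made into full-length cDNA by template switching and into libraries by tagmentation, per the labels' protocols, a chemistry that does not mark strand. The authors deposited whole-number read counts per gene symbol for 24062 genes in 12 libraries (6 HFD, 6 CD), with 5 lines of unassigned-read tallies, which made up 66.5% to 72.9% of all reads in HFD and 62.3% to 66.6% in CD and were kept out. STAR, HTSeq 1.0.0, DESeq2 1.0.19 and mm10 are named in the submitters' processing notes, which leave the annotation and the counting options unstated. Symbols were matched to GENCODE M21 (mm10 coordinates), 23685 of 24062.

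All genes were fitted together with edgeR 4.0.16 (R 4.3.3), TMM scaling, the default filter on low counts (9935 genes kept, all 4 genes studied among them) and the robust quasi-likelihood test with a term for diet alone. Adjustment was by Benjamini-Hochberg over the 9935 genes, with a threshold of 0.05. The common biological coefficient of variation was 64.0%. P-values measure the spread between pools, part of which may be technical, and reads carry no molecular identifiers. CPM use TMM-scaled library sizes, and log2 levels for likeness a prior count of 2. Alternatives were DESeq2 1.42.0, its size factors, total counts, limma 3.58.1 (voom with quality weights), no filter, a replicate block, halving of all-even libraries, odd-count libraries alone, a length correction, and leaving out each library. The scripts were tested on simulated data. Named genes are the 4 studied, per list the 2 with the smallest p and the 2 with the highest CPM, and the 5 nearest patterns. Any other was chosen after its values were seen or for its overlap. The genes and lists were chosen with earlier results of these data known.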

Additional observations from a re-analysis of the deposited data

Results flagged for a closer look

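In 6 of 52 groups of 6 pools, the highest or lowest pool stood far from the rest. The cut-off is one that about 1 in 20 groups of independent, normally spread values would pass. These groups hold untransformed CPM from the same pools, and some genes were chosen by p, so 6 of 52 cannot be read against that rate. For Pde3a, CD replicate 3 held 33.2 CPM, against 10.3 CPM in the next pool. For Pkmyt1, CD replicate 3 held 77.0 CPM, against 59.3 CPM in the next. For Gja4, HFD replicate 3 held 360 CPM, against 65.2 CPM in the next. For Gnai3, HFD replicate 3 was the lowest HFD pool at 60.9 CPM, against 137 CPM in the next. For Adcy2, CD replicate 5 held 20.9 CPM, against 7.22 CPM in the next. For Gucy1a2, CD replicate 6 was the lowest CD pool at 0.380 CPM, against 1.61 CPM in the next. By this cut-off no pool was flagged for Gpr3, Gnas or Adcy3. For Gpr3, CD replicate 3 still held 146 CPM, against 99.8 CPM in the next pool. Without CD replicate 3 the Gpr3 log2 fold change was −1.10 (edgeR, adjusted p = 0.227).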

How the results depend on the processing

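No gene was called by edgeR (2215 had an unadjusted p under 0.05) with any single library left out, nor without both HFD replicate 3 and CD replicate 3. DESeq2 called 709 genes, limma-voom with quality weights 35 (0.352%), and edgeR on the libraries with odd counts 456 of 11305 genes. DESeq2 also called Gpr3 (−1.37), Pde3a (−1.54), Gng5, Gnb5, Creb1, Pde4a and Pkmyt1. With 1 library left out, the log2 fold change ran from −1.46 to −1.10 for Gpr3, −1.68 to −0.98 for Pde3a, −0.23 to −0.09 for Gnas and −0.42 to −0.08 for Adcy3. Gnas stood at 0.034 with the length trend removed. Signs also turned for Adcy2 (−0.13 with limma-voom, and −0.059 to 1.29 with 1 library left out), Adcy9 (0.22 with limma-voom, 0.11 with the replicate block, and −0.35 to 0.23 with 1 left out), Gja4 (−0.15 to 1.73 with 1 left out), Akap7 (−0.34 in libraries with odd counts) and Prkg1 (0.049 with limma-voom). The cause was not tested. Of other pathway genes at an unadjusted p under 0.05, the lower count was 19 with total counts, 6 without both replicates 3, and 8 to 13 with 1 left out, and the higher count was 3 in the libraries with odd counts, and 6 to 10 with 1 left out. With the longest transcript as length, Gnas stood at 29.7 CPM per kb, the log2 ratio of Gpr3 to Gnas at −0.69 and that of Gnas to Adcy3 at 4.89. Libraries with the same replicate number had r from −0.45 to 0.55 over genes, above 0 for numbers 2, 5 and 6 and below 0 for 1, 3 and 4, and the best match was the own number for 2 and 6 only. The numbers were therefore not taken as pairs. With the replicate block Gpr3 stood at −1.25 and Pde3a at −1.27 (edgeR, adjusted p = 0.335 and 0.352). The low counts of Adcy3 and Pde3a limit what the depth can show for them.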

Other observations

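Genes here were chosen after their values were seen. Pde9a and Pde5a, phosphodiesterases specific for cGMP, had too few counts for the filter. Pde9a averaged 2.01 ± 1.08 CPM in HFD and 0.206 ± 0.229 CPM in CD (SD, n = 6 each), with 6 to 32 counts in HFD and 0 to 6 counts in CD and 6 of 6 HFD pools above the CD mean. Without the filter edgeR gave Pde9a an unadjusted p of 0.00317 (adjusted p = 0.149). Pde5a averaged 0.534 ± 0.412 CPM in HFD and 0.0475 ± 0.117 CPM in CD (without the filter, edgeR adjusted p = 0.262).

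Adrbk1, a receptor kinase known also as Grk2, had 0 to 2 counts in HFD and 0 to 14 counts in CD (without the filter, edgeR adjusted p = 0.206). Cdk1, the kinase at the end of the pathway, had 2138 counts in HFD replicate 3, against 16 to 68 in the other HFD pools and 5 to 56 in CD pools.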
